A study of Mus musculus with 16 samples.

Results

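The MHC interval is a stretch of 3 Mb on mouse chromosome 17 that holds the major histocompatibility complex (chr17:33500001-36500000, build mm8). It was chosen by position and covers 600 windows of 5 kb, 3.15% of the windows of chromosome 17 and part of the 492493 windows of chromosomes 1 to 19. The study used chromatin immunoprecipitation and sequencing (ChIP-seq) of mouse spleen lymphocytes. Antibodies to RNA polymerase II (Pol2), to EGFP for Myc, or a non-specific IgG as control gave 16 libraries. The groups were B cells given 25 µg/ml of the bacterial activator lipopolysaccharide (LPS) together with 10058-F4 for 4 h (1 Pol2, 1 Myc and 2 IgG libraries), B cells given 25 µg/ml of LPS alone for 4 h (B4: 1 Pol2, 2 Myc and 3 IgG libraries), T cells given 7.5 µg/ml of the lectin concanavalin A (ConA) for 4 h (T4) or 14 h (T14), and untreated B cells (B0), with 1 Myc and 1 IgG library in each of these last 3 groups. 10058-F4 is a small-molecule inhibitor that keeps Myc from dimerising with Max, and its dose is not given in the sources used here. Neither the strain nor the age of the mice is given in the sources used here, and the Myc libraries rest on an EGFP antibody, so what they report depends on the tagged protein in those cells. The titles of the B4 Pol2 library and of B4 IgG replicate 2 carry the mark wt, which may mean another genotype than in the cells with EGFP-Myc, and for Pol2 this mark and the absence of 10058-F4 cannot be told apart. No label says whether libraries of 1 group came from separate mice, so the p-values below speak of the spread between libraries, which may be technical.

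The MHC is known for its dense set of immune genes. Class I genes encode the surface molecules that show peptides from inside the cell to cytotoxic T cells. Class II genes encode those that B cells, dendritic cells and macrophages use to show ingested antigen to helper T cells, and the genes between them include complement components and cytokines of the tumour necrosis factor family. In RefSeq's annotation of a later assembly, GRCm38.p6, the order along chromosome 17 runs from Tapbp (a chaperone for class I loading) and H2-K1 (class I) through Brd2 (a bromodomain protein of chromatin) and H2-DMa (peptide loading of class II). It goes on with Psmb9, Tap1, Psmb8 and Tap2 (making and transport of peptides for class I) and the class II genes H2-Ab1, H2-Aa and H2-Eb1. After these come Notch4 (a receptor), C4b (complement), Lta (a cytokine), H2-D1 (class I) and the class I-like H2-Q and H2-T genes. B cells carry class II before activation. No mm8 annotation was used here, so the windows below are named by position and none is assigned to a gene.

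Pol2 reads were dense across the interval in both Pol2 libraries. With 10058-F4 the interval held 9.80 reads per window after scaling to library size over chromosomes 1 to 19 (RPM), against 2.45 RPM in the rest of chromosome 17, a ratio of 4.00 (95% counting interval 3.96 to 4.05). In B4 it held 7.82 RPM per window, against 2.46 RPM in the rest, a ratio of 3.18 (3.11 to 3.24). The same ratio in the 5 IgG libraries of these cell states lay between 0.964 and 1.50. Divided by the ratio of each IgG library of its own state, Pol2 in the interval was 3.08- and 3.58-fold over the rest with 10058-F4, and 2.12- to 3.29-fold in B4. The lowest value of each state came from the IgG library nearest to its Pol2 library in reads on chromosome X relative to chromosome 3. These were replicate 1 of the IgG with 10058-F4 (38.7%, Pol2 35.1%) and B4 IgG replicate 2 (36.8%, Pol2 36.9%). The interval took 11.5% of chromosome 17 reads with 10058-F4 and 9.37% in B4, against 3.04% to 4.64% in the 5 IgG libraries, and the groups did not overlap. An exact two-sided permutation test of 2 Pol2 against 5 IgG libraries gave p = 0.0952 (adjusted over 3 tests, 0.167), the smallest p that this design allows. That test takes libraries with and without 10058-F4 together, so the 2 Pol2 libraries are not replicates of 1 state. Intervals here cover counting error only.

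**Figure D1:**
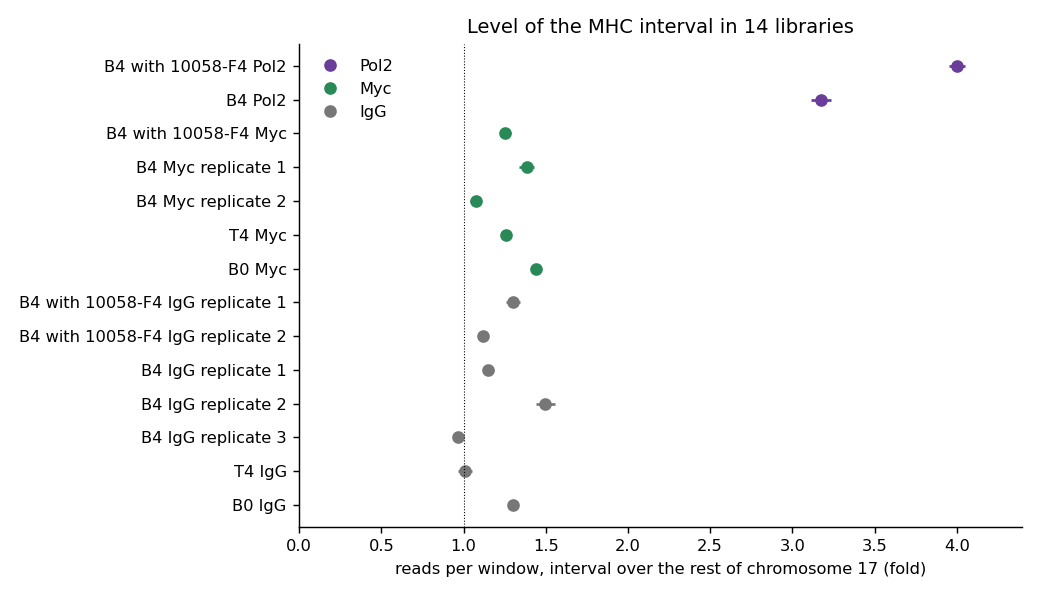
Reads per 5 kb window in the MHC interval divided by reads per window in the rest of chromosome 17, for 2 Pol2, 5 Myc and 7 IgG libraries (T14 is left out); points are single libraries and bars are 95% counting intervals. The Pol2 libraries lie at 4.00 and 3.18, while the Myc libraries (1.07 to 1.44) and the IgG libraries (0.964 to 1.50) overlap.

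Against other stretches of 3 Mb on the chromosome, the interval ranked first of 30 in Pol2 level in both libraries. The next stretch, chr17:24500001-27500000, had 5.88 RPM per window with 10058-F4 and 5.99 RPM in B4. The median of the other stretches was 2.48 RPM with 10058-F4 and 2.42 RPM in B4. At its edges the interval was unequal. Its first 250 kb held 22.4 RPM per window with 10058-F4 and 19.1 RPM in B4, against 5.32 and 5.14 RPM in the 250 kb before it. Its last 250 kb held 1.41 RPM with 10058-F4 and 1.55 RPM in B4, against 3.30 and 2.93 RPM in the 250 kb after it.

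A window was called Pol2-high at 4 times or more the median window of its library, which came to 3.12 RPM (16 reads) with 10058-F4 and 5.05 RPM (12 reads) in B4. By this rule, 270 of the 600 windows (45%) were Pol2-high with 10058-F4, where 10.5% of all windows of chromosomes 1 to 19 and 13.6% of the rest of chromosome 17 were. In B4, 217 windows (36.2%) were Pol2-high, against 7.26% of all windows and 9.51% of the rest. By this count the interval ranked second of the 30 stretches in both libraries, after chr17:24500001-27500000 with 277 Pol2-high windows with 10058-F4 and 229 in B4. The 2 counts rest on different thresholds: at the B4 threshold of 5.05 RPM, 211 windows were Pol2-high with 10058-F4, where the background was 6.28%. In both libraries 205 windows were Pol2-high, which is 75.9% of those with 10058-F4 and 94.5% of those in B4. A further 65 were Pol2-high only with 10058-F4 and 12 only in B4. The 270 windows with 10058-F4 held 94.0% of that library's Pol2 reads in the interval, and the 217 windows in B4 held 87.2% of its own. Where Pol2 was instead set against the summed IgG, with 0.5 RPM added to both, 119 interval windows (19.8%) reached 4 times the IgG level with 10058-F4, where 2.66% of all windows of chromosomes 1 to 19 and 3.21% of the rest of chromosome 17 did. In B4, 106 interval windows (17.7%) did, against 1.94% of all windows and 2.5% of the rest.

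**Figure D2:**
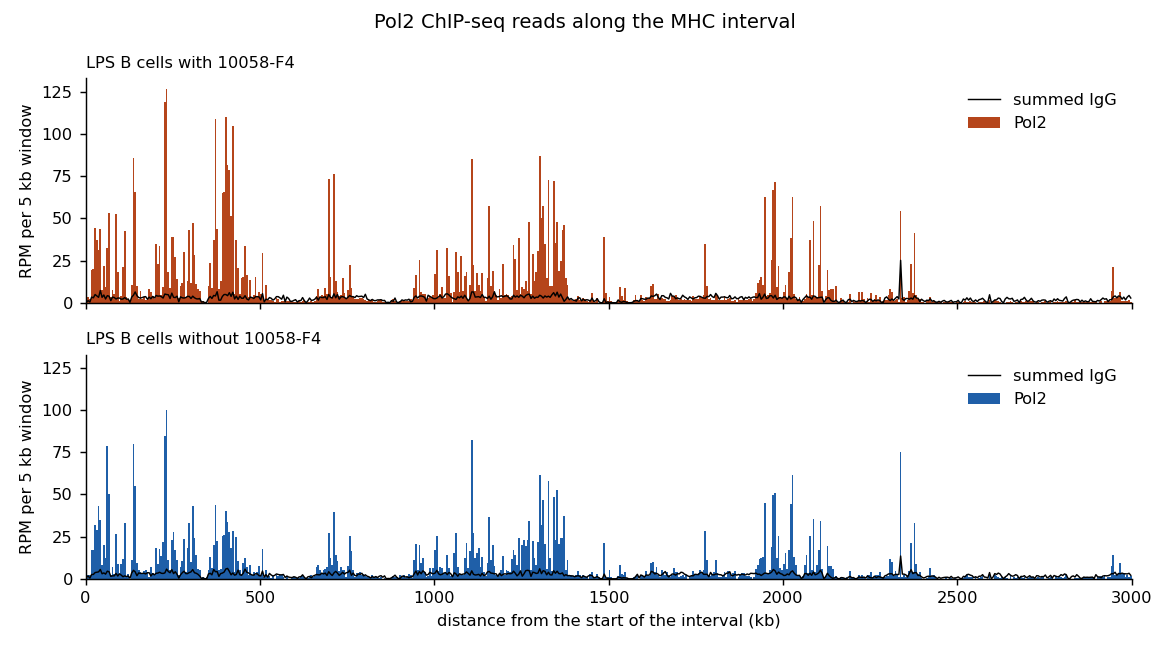
Pol2 reads per 5 kb window (RPM, bars) and summed IgG of the same state (line) along the MHC interval, with 10058-F4 (top) and in B4 without it (bottom); the x axis gives distance from the interval's start in kb. Pol2 stood in clusters separated by stretches near IgG level, in the same places in both libraries, and reached 127 RPM with 10058-F4 and 100 RPM in B4 in the same window.

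The Pol2 signal lay in a few clusters. In steps of 250 kb, the second block (chr17:33750001-34000000) held most Pol2-high windows, 44 of 50 with 10058-F4 and 37 in B4. The first had 40 and 34, the fifth (chr17:34500001-34750000) 42 and 33, and the sixth (chr17:34750001-35000000) 31 and 27. The eleventh block (chr17:36000001-36250000) had 0 in both libraries, at 0.464 RPM per window with 10058-F4 and 0.732 RPM in B4. The seventh block had 14 with 10058-F4 and 7 in B4, and 5 of the interval's 6 windows without a read in any of the 16 libraries lay in it. The profiles of the 2 libraries were alike over the 600 windows (Spearman's rho 0.91, a description over windows that share 2 libraries), while over the 18436 windows of the rest rho was 0.72. With 10058-F4, 47 windows were enough to hold 50% of the interval's Pol2 reads, and 59 windows in B4, whereas the 5 IgG libraries needed 130 to 174.

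Adjacent Pol2-high windows formed 62 domains with 10058-F4 and 57 in B4. Domains of 3 or more windows numbered 26 with 10058-F4 and 27 in B4, and held 83.3% and 82.0% of the Pol2-high windows. In the rest of chromosome 17, such domains held 61.0% with 10058-F4 and 51.5% in B4. They made up 41.9% of the interval's domains with 10058-F4 and 47.4% in B4, against 24.0% and 20.6% in the rest. Where more windows are Pol2-high, more of them are adjacent, so these shares are not a trait apart from the counts above. Domains of chr17:24500001-27500000, which had more Pol2-high windows than the interval, were not set beside these. The interval did not hold the longest run on the chromosome: it was 190 kb in the interval and 235 kb in the rest with 10058-F4, and 85 kb in the interval and 120 kb in the rest in B4. Since each library has its own threshold, these counts and lengths are read within a library and not between the 2.

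The 10 longest domains of both libraries fell in 6 places. The longest, chr17:34695001-34885000 with 10058-F4, spanned 190 kb at 26.0 RPM per window with 10058-F4 and 20.7 RPM in B4. The B4 library has the higher threshold, and 37 of the 38 windows of this stretch reached the 3.12 RPM of the other library in B4 too. At its own threshold B4 divided the stretch, and the longest part, chr17:34750001-34835000, spanned 85 kb at 29.9 RPM with 10058-F4 and 25.1 RPM in B4. At chr17:33515001-33595000 a domain of 80 kb had 25.5 RPM with 10058-F4 and 24.4 RPM in B4. At chr17:33700001-33765000 the calls were identical in the 2 libraries, 65 kb at 38.2 RPM with 10058-F4 and 27.8 RPM in B4. A pair of overlapping runs lay further along: chr17:35420001-35495000 with 10058-F4 (22.1 RPM, and 18.0 RPM in B4) and chr17:35460001-35540000 in B4 (22.1 RPM with 10058-F4 and 21.8 RPM in B4). A domain of 70 kb at chr17:34175001-34245000 had 17.2 RPM with 10058-F4 and 11.1 RPM in B4. The remaining place, chr17:33850001-33975000, had the highest ratio between the 2 libraries of the 6 and is described below.

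Single windows showed the same clusters. The highest Pol2 window in both libraries was chr17:33730001-33735000, with 127 RPM with 10058-F4 and 100 RPM in B4, and its neighbour at 33725001 had 119 and 85 RPM. The other windows among the 10 highest of B4 started at 34605001 (85.2 RPM with 10058-F4 and 82.4 RPM in B4), 33635001 (85.8 and 79.9 RPM), 34800001 (87.1 and 61.4 RPM), 35525001 (62.8 and 61.8 RPM), 34825001 (72.5 and 58.0 RPM) and 33640001 (65.7 and 55.1 RPM). In these 8 windows the log2 ratio of 10058-F4 over B4 lay between 0.02 and 0.50. The window at 33560001 went the other way, with 32.7 RPM with 10058-F4 against 78.7 RPM in B4, a log2 ratio of -1.26 (-1.56 to -0.96). The remaining window, at 35835001, had 54.6 RPM with 10058-F4 and 75.3 RPM in B4, but it was also the highest window of the interval in every IgG library, with 10.4 to 84.0 RPM. There Pol2 was 2.15 times the summed IgG with 10058-F4 and 5.41 times in B4, so its Pol2 level is not a measure of Pol2 alone.

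Pol2 in the interval was higher in the library with 10058-F4 than in that of B4. The log2 ratio of 10058-F4 over B4 was 0.33 (0.29 to 0.36) for the summed interval, against -0.01 (-0.02 to 0.00) for the rest of chromosome 17. With 1 library on each side there is no test of this difference. The rest includes chr17:36500001-39500000, which had 3.29 RPM per window with 10058-F4 and 5.88 RPM in B4, with only 13 and 9 Pol2-high windows. That stretch lowers the ratio of the rest, and the rest without it was not computed. The comparison depends on the scale: over all windows of chromosomes 1 to 19 that were Pol2-high in either library, the median log2 ratio was 0.25, and relative to that median the interval stood at 0.08 and the rest at -0.26. Among Pol2-high windows alone, the interval was close to the rest of the genome. The median log2 ratio over the interval's windows that were Pol2-high in either library was 0.27 (quartiles -0.23 and 0.69), and 0.21 over 2783 such windows in the rest of chromosome 17. Of these interval windows, 39 (13.8%) were at least 2-fold higher with 10058-F4, where the background over chromosomes 1 to 19 was 15.3%, and 23 (8.16%) were at least 2-fold lower, where it was 10.3%. These shares lie near the background and set the interval's Pol2-high windows apart in neither direction. In the 312 read-bearing windows that were Pol2-high in neither library, the median was -0.08.

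**Figure D3:**
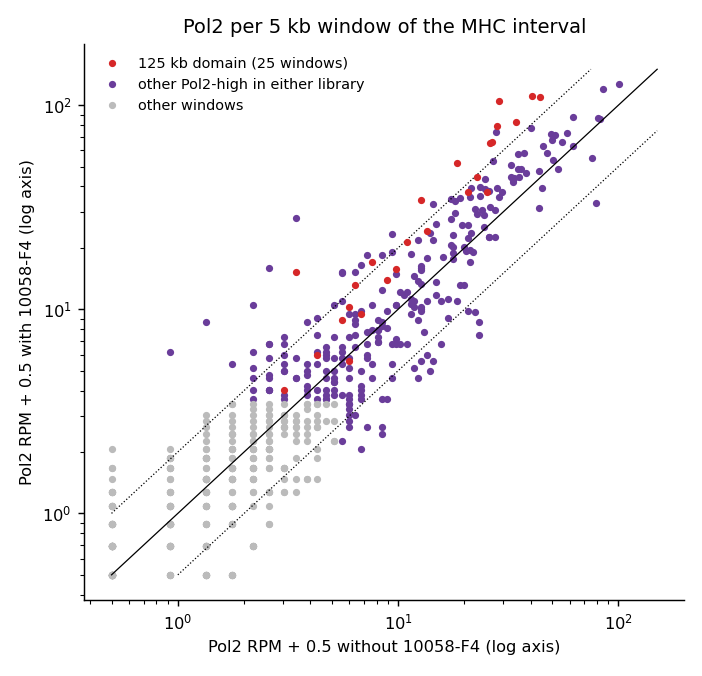
Pol2 in each 5 kb window of the MHC interval with 10058-F4 (y axis) and in B4 without it (x axis), as RPM with 0.5 added on log axes; the solid line marks equal values and dotted lines mark 2-fold differences. Windows of the domain chr17:33850001-33975000 (25 windows) lie above the line of equality in 24 cases, and 12 of them lie 2-fold or more above it.

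Of the 6 places named above, the domain chr17:33850001-33975000 differed most between the 2 libraries. Over its 125 kb, Pol2 averaged 39.1 RPM per window with 10058-F4 (5010 reads) against 16.3 RPM in B4 (971 reads), a log2 ratio of 1.26 (1.16 to 1.36). It held 16.6% of the interval's Pol2 reads with 10058-F4 and 8.70% in B4. The domain was picked for this ratio, so the values here are high by choice, and its ends were set in the library with 10058-F4. The run that the B4 library gave, chr17:33850001-33925000, had 54.1 RPM with 10058-F4 and 21.4 RPM in B4 (log2 ratio 1.34, 1.22 to 1.45). That run lies inside the domain and shares its reads, so it is not a separate check. Summed IgG averaged 3.56 RPM per window of the domain with 10058-F4 and 3.61 RPM in B4. Of its 25 windows, 24 were higher with 10058-F4 and 12 at least 2-fold higher, and the exception, at 33940001, had 5.07 RPM with 10058-F4 and 5.47 RPM in B4. The highest were the windows at 33900001 (110 RPM with 10058-F4 and 40.0 RPM in B4), 33870001 (109 and 43.7 RPM) and 33920001 (105 and 28.2 RPM). Relative to the median of Pol2-high windows above, the log2 ratio of the domain was 1.01.

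**Figure D4:**
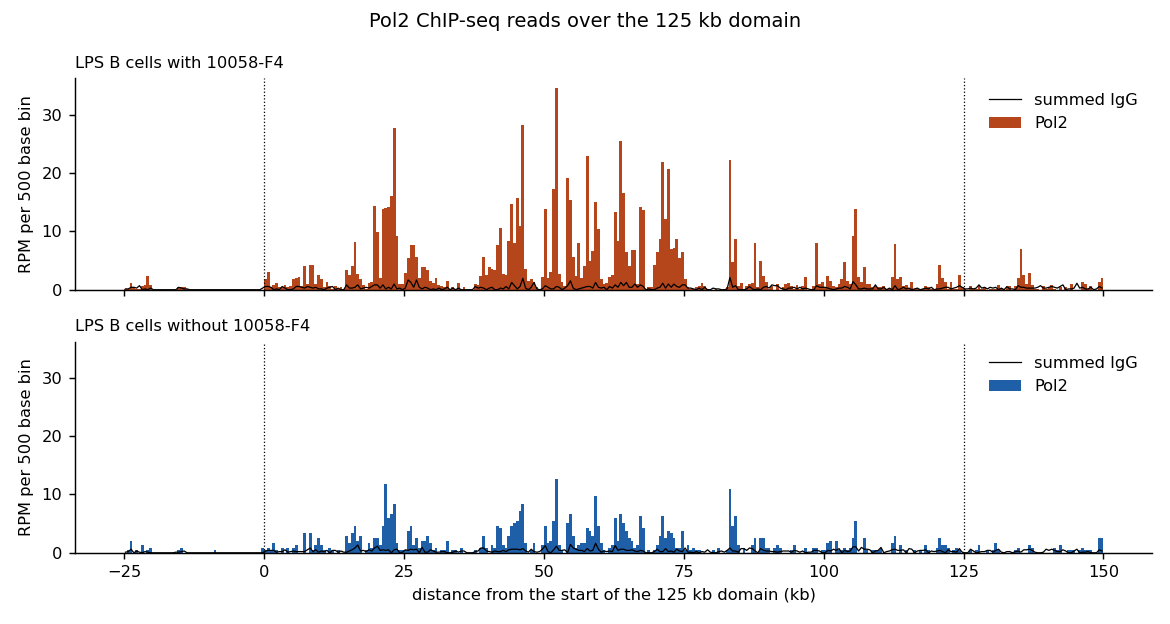
Pol2 reads per 500 base bin (RPM, bars) and summed IgG (line) over the domain chr17:33850001-33975000, with 10058-F4 (top) and in B4 without it (bottom); dotted lines mark the domain's ends and the x axis gives distance from its start in kb. The highest bin was the same in both libraries, at 34.5 RPM with 10058-F4 and 12.6 RPM in B4, while summed IgG reached 2.08 and 1.64 RPM.

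At 500 base resolution, the highest bin lay 52.3 kb from the domain's start in both libraries, and Spearman's rho between them was 0.77 over 250 bins, a description over bins that share 2 libraries. With 10058-F4, 190 bins were higher than in B4, and 56 of these had no read in B4, where 1 read is 0.421 RPM. Blocks of 250 kb put this in the context of the chromosome. The second block of the interval, which holds the domain, had a log2 ratio of 0.94 (0.86 to 1.01) and ranked number 3 of 363 blocks of chromosome 17 with at least 100 Pol2 reads. The highest ratio among all 351 such blocks of the rest was 1.40. Among the 52 of them with 5 RPM or more per window in B4, the highest was 0.74, but a cut on the B4 level favours lower ratios. Without the domain's 25 windows, the log2 ratio of the interval was 0.20 (0.16 to 0.23), and its ratio to the rest of the chromosome was 3.48 with 10058-F4 and 3.02 in B4.

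Shorter domains and single windows differed in both directions. A domain of 15 kb, chr17:34535001-34550000, was higher, with 18.0 RPM with 10058-F4 and 7.29 RPM in B4 (log2 ratio 1.30, 0.88 to 1.73, on 52 reads in B4), and chr17:34250001-34270000 was lower, with 10.3 RPM with 10058-F4 and 13.7 RPM in B4 (log2 ratio -0.40, -0.72 to -0.09). Among single windows that were Pol2-high in either library with 20 or more Pol2 reads in all, the most raised on the scale of log2(RPM + 0.5) started at 34575001 (27.5 RPM with 10058-F4 and 2.94 RPM in B4), 34990001 (5.65 and 0.421 RPM), 33680001 (8.19 and 0.841 RPM), 33985001 (15.4 and 2.10 RPM) and 35650001 (9.94 and 1.68 RPM). In 3 of these the B4 value stands for 1 to 4 reads. The most lowered started at 35560001 (1.95 RPM with 10058-F4 and 7.99 RPM in B4), 34595001 (1.56 and 6.31 RPM), 35535001 (2.14 and 7.99 RPM), 34765001 (7.02 and 22.7 RPM) and 33715001 (4.48 and 13.5 RPM). The last 2 lay inside long domains whose sum was higher with 10058-F4. The window at 35535001 lay at the end of the B4 domain chr17:35460001-35540000, whose sum was nearly equal in the 2 libraries (log2 ratio 0.02, -0.10 to 0.14).

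Myc, measured with the EGFP antibody, was not set apart from IgG over the interval as a whole. In 5 Myc libraries (T4, B4 with 10058-F4, both B4 replicates and B0) the interval took 3.38% to 4.47% of chromosome 17 reads, with a geometric mean of 3.98%, against 3.04% to 4.64% and 3.69% in 7 IgG libraries. The ranges overlapped, and the highest value belonged to an IgG library, B4 IgG replicate 2. The log2 difference was 0.11 (exact two-sided permutation test, p = 0.361, adjusted over 3 tests 0.361; the smallest p this design allows is 0.00253). This test takes 5 Myc libraries from different groups of cells together, both B4 replicates among them, and does not show that Myc was absent from the interval.

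By cell state, Myc over the summed IgG in the interval, relative to the rest of chromosome 17, had a log2 ratio of 0.32 in T4 (0.25 to 0.39), 0.09 in B4 with 10058-F4 (0.05 to 0.14), 0.33 and -0.04 in the B4 replicates, and 0.14 in B0 (0.10 to 0.19). Without the window at 35835001, picked for its IgG reads, which tends to raise the ratio, T4 stood at 0.40. T4 reads were 25 bases long, so cell type and read length cannot be told apart where T4 is set beside B cells. The choice of IgG library moved the value as much as the cell state did. With each B4 IgG library alone, replicate 1 of B4 ranged from -0.11 to 0.52 and replicate 2 from -0.48 to 0.16, and B4 with 10058-F4 ranged from -0.05 to 0.16. The IgG libraries differed in their own profile. Reads on chromosome X were 35.1% to 46.7% of those on chromosome 3 in both Pol2 libraries, B0, T14, B4 IgG replicate 2 and replicate 1 of the IgG with 10058-F4, and 52.2% to 69.8% in the other libraries. With only the IgG libraries whose chromosome X reads lay near those of the Myc library, a choice made after seeing the data, the mean of the B4 replicates was 0.23 against 0.14 with all 3 IgG libraries, and B4 with 10058-F4 was 0.16 against 0.09.

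**Figure D5:**
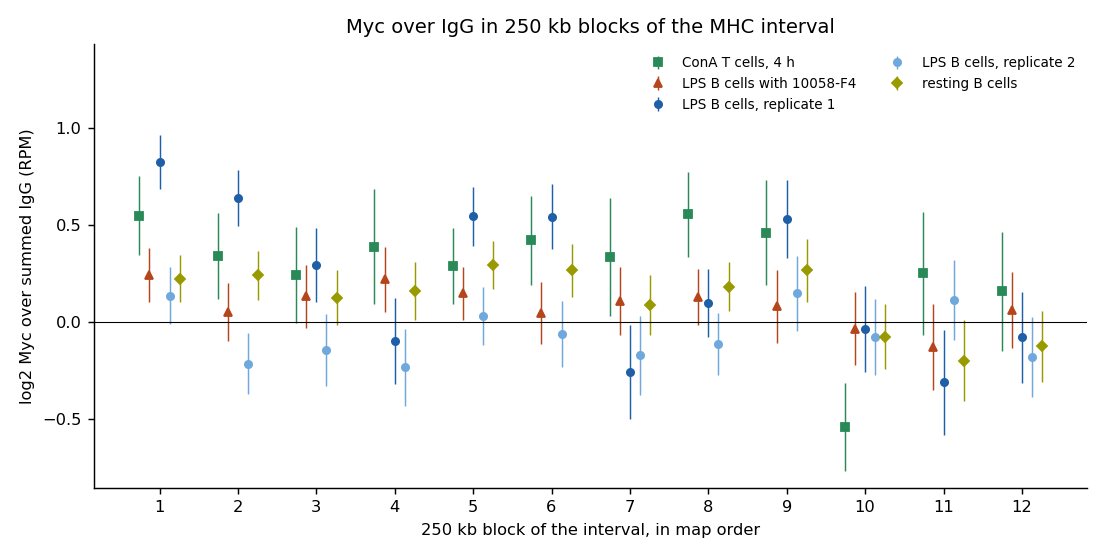
Log2 ratio of Myc over summed IgG (RPM) in the 12 blocks of 250 kb of the MHC interval for T4, B4 with 10058-F4, both B4 replicates and B0; points are single libraries and bars are 95% counting intervals. B4 replicate 1 was highest in the first block at 0.82, where replicate 2 stood at 0.14, and T4 was lowest in the tenth block at -0.54.

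Along the interval, blocks 1, 5 and 9 had a ratio above 0 in each of these libraries. In block 1 it was 0.55 in T4, 0.24 in B4 with 10058-F4, 0.82 and 0.14 in the B4 replicates and 0.22 in B0, and the counting interval of B4 replicate 2 included 0. The eleventh block, which had no Pol2-high window, was at 0.25 in T4, -0.13 in B4 with 10058-F4, -0.31 and 0.11 in the B4 replicates and -0.20 in B0. The tenth block stood at -0.54 in T4, and it holds the window at 35835001 where the T4 IgG library had 149 reads and the T4 Myc library 90. The counting intervals of the B4 replicates did not overlap in 5 of the 12 blocks (blocks 1, 2, 3, 5 and 6 in map order), with replicate 1 the higher in all 5, for example at 0.64 and -0.21 in the second.

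Myc over IgG was then set beside Pol2. In the 217 windows that were Pol2-high in B4, the log2 ratio of Myc over summed IgG was 0.33 in T4, 0.16 in B4 with 10058-F4, 0.64 and -0.02 in the B4 replicates, and 0.26 in B0. In the other 383 windows it was 0.26 in T4, 0.05 in B4 with 10058-F4, -0.10 and -0.10 in the B4 replicates, and 0.04 in B0. The difference between the classes was 0.07 in T4 (-0.07 to 0.21), 0.11 in B4 with 10058-F4 (0.02 to 0.21), 0.74 (0.63 to 0.85) and 0.09 (-0.02 to 0.19) in the B4 replicates, and 0.21 in B0 (0.13 to 0.30). The choice of IgG library moved the values of Pol2-high windows: with each B4 IgG library alone, replicate 1 ranged from -0.04 to 0.97 and replicate 2 from -0.70 to 0.31, and B4 with 10058-F4 ranged from -0.05 to 0.26. The interval's difference between the classes stayed above 0 with each IgG library alone in replicate 1 (0.55 to 0.96) and with 10058-F4 (0.106 to 0.114). In replicate 2 it ranged from -0.10 to 0.31. In the rest of chromosome 17 the difference between the classes was 0.08 in T4, 0.02 in B4 with 10058-F4, 0.46 and -0.09 in the B4 replicates, and 0.11 in B0. These values changed sign with the IgG library: with each alone, B4 with 10058-F4 ranged from -0.32 to 0.18, replicate 1 of B4 from -0.21 to 0.73 and replicate 2 from -0.76 to 0.17. The window at 35835001 described above is 1 of the 217, and it held 149 of the 1304 T4 IgG reads of this class and 90 of the 4098 T4 Myc reads. Leaving it out was an alternative added after seeing the data. The window was picked for its IgG reads, so its removal tends to raise Myc over IgG and is no separate support. Without it, T4 stood at 0.48 in Pol2-high windows and its difference between the classes was 0.21 (0.07 to 0.36). The difference was then 0.14 in B4 with 10058-F4, 0.75 and 0.09 in the B4 replicates and 0.23 in B0. Myc reads were denser in Pol2-high windows, at 2.03 to 3.30 times the other windows in the 5 Myc libraries, but so was IgG, at 1.70 to 2.64 times in the 7 IgG libraries. Pol2-high windows held 53.4% to 65.1% of the interval's Myc reads and 49.0% to 59.9% of its IgG reads. The ranges overlapped (log2 difference 0.11, exact two-sided permutation test, p = 0.111, adjusted over 3 tests 0.167). Without the window at 35835001 the highest IgG ratio of Pol2-high to other windows, that of T4 IgG, was 2.35. The log2 difference of the shares was then 0.13 (exact two-sided permutation test, p = 0.0631, not adjusted), a shift in the direction that this choice of window favours.

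Without pairing of libraries, no single window of the interval passed a test of Myc. In limma's voom fit with Benjamini-Hochberg adjustment over all tested windows of chromosomes 1 to 19, 0 of 436 interval windows were higher in B4 Myc than in B4 IgG at an adjusted p below 0.05, and 0 were lower, where 0.00126% of 395560 windows were called higher. At an unadjusted p below 0.05, 23 were higher, where the background was 3.04%, and 9 were lower, where it was 1.38%. These are 5.28% and 2.06% of the tested interval windows. In B4, replicate 1 of Myc and of IgG had reads of 24 to 30 bases, and the other Myc and IgG libraries reads of 45 bases. With Myc replicate 1 and IgG replicate 1 as one replicate block, Myc replicate 2 and IgG replicate 3 as the other and the IgG library marked wt left out, limma called 12 of 459 interval windows (2.61%) higher in Myc at an adjusted p below 0.05 and 0 lower, where 0.213% of all tested windows were called higher. That fit rests on 4 libraries with 1 residual degree of freedom, and without the block the same 4 libraries gave 0 interval windows. On simulated counts, the fit of all 5 B4 libraries without the block recovered 62 of 100 windows with a 4-fold change and 98 of 100 with an 8-fold change, and made 7 false calls. All simulated libraries were drawn from a single shared profile with a fixed spread, while the B4 libraries differed in profile. These recoveries may therefore overstate what the fit of the real libraries could find. The fit with the block was not simulated. The 3 comparisons between cell states called 0 interval windows, of 424 for T4 against B4, 495 for 10058-F4 against B4 and 495 for B4 against B0. At an unadjusted p below 0.05 they gave 8 higher and 6 lower for T4 against B4 (backgrounds 0.764% and 3.25%), 14 and 6 for 10058-F4 (1.67% and 1.23%), and 3 and 5 for B4 against B0 (1.77% and 0.91%). On simulated counts these 3 fits recovered at most 3 of 100 windows with a 4-fold change, and 0, 18 and 27 of 100 with an 8-fold change, so changes of that size would mostly have been missed. In T4 against B4, cell type and read length cannot be told apart, since T4 reads were 25 bases long.

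Among the 108 windows with 20 or more B4 Myc reads, the highest mean log2 ratio with 0.5 RPM added belonged to chr17:33730001-33735000, the window with most Pol2, at 1.91 and 1.33 in the B4 replicates (96 Myc and 56 IgG reads). The same window stood at 2.64 in T4 (74 Myc and 4 IgG reads), 0.88 in B4 with 10058-F4 and 0.38 in B0. Its difference in B4 had an unadjusted p of 0.0225 and an adjusted p of 0.961 in limma. The next 4 in B4 started at 35520001 (1.98 and 0.76 in the replicates), 33635001 (1.80 and 0.93), 33525001 (1.97 and 0.59) and 33685001 (1.81 and 0.67), each with an adjusted p of 0.961 in limma. All 5 were Pol2-high in B4, at 6.73 to 100 RPM, as were 93.5% of the 108 windows with enough Myc reads, so that nothing is read from their Pol2. In all 5, replicate 1 was above replicate 2.

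In the other states some of the leading windows rested on few Myc or few IgG reads. With 10058-F4, 39 windows had 20 or more Myc reads, and the highest, at 33820001, reached 1.33 on 21 Myc and 16 IgG reads, followed by 33555001 (1.26), 34500001 (1.26), 35275001 (1.25) and 33635001 (1.20). In T4 the highest of 93 windows was chr17:36030001-36035000 at 3.33, on 20 Myc reads against 0 IgG reads, where Pol2 in B cells was 0.585 RPM with 10058-F4 and 1.26 RPM in B4. Since 0 IgG reads allow up to 1.69 RPM in that library, this ratio depends on the 0.5 RPM added. It was followed by 33730001, 33540001 (2.63), 35305001 (2.58) and 34460001 (2.53), the last 3 on 1 IgG read each. In B0 the highest of 331 windows was at 34420001 (2.22, on 22 Myc reads and 1 IgG read), followed by 34750001 (1.66), 35100001 (1.55), 34290001 (1.26) and 33820001 (1.19). Of these 5 windows of B0, 2 were Pol2-high in B4, where 60.7% of the 331 were. The window at 33635001 was thus among the first 5 in B4 and in B4 with 10058-F4, 33730001 in T4 and B4, and 33820001 in B4 with 10058-F4 and B0.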

How the data were processed

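The authors deposited aligned reads as BED lines that give each read's place, length and strand, and neither counts per region nor peaks. Build mm8, CASAVA 1.0 and Bowtie 0.12.7 are named per the submitters' processing notes. Their settings are not given in the sources used here, and positions may start at 0 or at 1. Read length was 24 to 30 bases in replicate 1 of B4 Myc and of B4 IgG, 25 in T cells and 45 elsewhere.

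From these other values deposited by the authors (positions and lengths), reads sharing a 5′ end and strand were reduced to 1, which removed 5.29% of B4 Myc replicate 1, 0.0808% of B4 IgG replicate 1 and 0 elsewhere. Read midpoints were counted in 5 kb windows of chromosomes 1 to 19. Kept reads numbered 1278471 to 7433203 per library, so 1 read is 0.135 to 0.782 RPM, and 0 reads allow up to 3 reads. Per-window log2 ratios used RPM with 0.5 added; folds of sums used none. Sums have 95% counting intervals. Reads are not molecules, so these cover counting error only.

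Shares of reads were compared by exact permutation over libraries (scipy 1.17.1). Windows were tested with limma 3.58.1 (voom) where they held 4 or more reads per library on average, with adjusted p below 0.05; lone libraries were assumed to vary like replicated ones. The fits were tested on simulated data. T14 was left out of tests, because its titles and file names give opposite antibodies. Pol2 has 1 library a side and was not tested. Windows named were the 10 highest in B4 Pol2, the 10 longest domains, the 5 most raised and 5 most lowered of those with 20 or more Pol2 reads, and the 5 with most Myc over IgG per state among those with 20 or more Myc reads; 34535001 and 34250001, 33900001, 33870001, 33920001 and 33940001 were named after their values were seen. The interval, lists and tests were chosen with earlier results of these data known, and the comparison of reads in Pol2-high windows, Myc against IgG, was added after seeing the counts. Alternatives covered thresholds, duplicates, read shift, grid, scaling, thinning, choice of IgG, filters and left-out libraries.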

Additional observations from a re-analysis of the deposited data

Results flagged for a closer look

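The T14 libraries entered no comparison above. In the interval's 217 Pol2-high windows of B4, the 2 libraries labelled T14 had a log2 ratio, taken as labelled Myc over labelled IgG, of -1.08 (95% counting interval -1.18 to -0.97), and in the other windows -0.22. Over the whole interval, relative to the rest of chromosome 17, it was -0.61. The library labelled IgG was thus the higher one where Pol2 was high, which no other state showed for its summed IgG by this size. Titles and file names of these 2 libraries give opposite antibodies, and which is right was not tested.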

How the results depend on the processing

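Among the 4 window tests with limma, the 2 share tests, the Pol2 counts and levels and the Myc ratios, most alternatives left the result on its side of the threshold or within its error. Exceptions follow, and their cause was not tested. Setting Pol2 at 4 times the summed IgG gave 119 Pol2-high windows with 10058-F4 (19.8% of the interval, against 2.66% of all windows) and 106 in B4 (17.7% against 1.94%). In windows with reads in all 16 libraries, Pol2 over the rest of chromosome 17 was 3.69 with 10058-F4 and 2.97 in B4. Scaling to the median of Pol2-high windows, chosen after seeing the data, took the log2 ratio of 10058-F4 over B4 to 0.077. Myc over IgG in B4 stood at -0.30 with IgG replicate 2 alone. With 10058-F4 it was -0.053 and 0.16 with each IgG library alone, and 0.027, 0.032 and 0.015 as a median over windows with 0.5, 0.1 and 2 RPM added. In B0 such medians were 0.087 with 0.5 RPM and 0.049 with 2 RPM added, and in T4 0.16 with 2 RPM. Without the window at 35835001, left out after seeing the data and for its IgG reads, which tends to raise the ratio, T4 was 0.40. With T14 included as labelled, the share of reads in Myc against IgG turned to -0.010 (exact permutation p = 0.926, 14 libraries).

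Leaving out 1 library at a time, the log2 difference of shares ranged from 0.06 to 0.17 for Myc, from 1.33 to 1.63 for Pol2 and from 0.07 to 0.14 for Myc reads in Pol2-high windows, and limma called 0 interval windows in each of the 4 tests. 1 B4 Myc and 1 B4 IgG library share the mark rpt in their titles. With a replicate block for these pairs and without the library marked wt, limma called 12 interval windows higher in B4 Myc (874 over chromosomes 1 to 19) against 0 without the block, and 0 in the other 3 tests. The paired libraries' deviations correlated at 0.10 over 398210 windows, and no label says that the mark is a batch.

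Depth limits single windows: B4 IgG replicate 2 had 1278471 reads, where 1 read is 0.782 RPM.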
